A study of Botryllus schlosseri with 42 samples.

Results

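Levels of 4 contigs were followed through the blastogenic cycle of Botryllus schlosseri, a colonial ascidian whose zooids are replaced by new buds in repeated rounds. They were the homologs of nanos (Bot_c494), of vasa (CAP3_round1_contig_8235) and of piwi (Bot_c34775, called piwi-a here, and a further contig with the same homolog, called piwi-b), chosen by their identifiers in the deposited tables, which list 50106 contigs per stage. RNA came from whole laboratory-raised colonies, selected by its poly(A) tail, at 7 stages named from A1 (a new cycle begins) to D (takeover, when the old zooids regress). Each stage had 3 fertile libraries (labelled Hermaprhodite) and 3 libraries of infertile colonies, which makes 42. Per the study's methods, each group was made of 2 single genotypes and 1 pool of genotypes, and the same genotypes were sampled at every stage. In these methods 1 genotype number occurs both as a fertile sample and in the infertile pool. Another number, with different letters after it, occurs in the fertile pool and as a single infertile sample. The labels name no treatment, and ages were not given in the sources used here.

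Nanos is a zinc-finger protein that represses translation of target mRNAs and is needed to keep germ cells in flies, worms and mice. Vasa (DDX4 in mammals) is a DEAD-box RNA helicase of germ granules, the cytoplasmic bodies in which germ cells gather RNA. Piwi proteins are Argonautes that bind small piRNAs and silence transposons, and in several animals they are also found in stem cells outside the gonad. In Botryllus, mobile germ cells that carry these mRNAs pass from one generation of buds to the next, also in colonies that form no gonads, so the question put to the tables was how much of each mRNA infertile colonies kept.

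The deposited tables give the mean normalized count of each group and no library values. Because each mean is a sum over 3 libraries of whole read pairs divided by a size factor, the libraries behind it could be solved for, and all 4 contigs had a single solution in all 14 group columns. Recovered libraries carry no genotype name. They were numbered 1 to 3 by decreasing size factor within a group and stage, so that library 1 at A1 need not be library 1 at A2. Solved contigs held 4616590 to 15954433 read pairs in each library. Markers of the gonads separated the groups with exceptions. The testis sum is the summed level of tsk-1, tsk-2 and tsk-6, homologs of testis-specific kinases. At A1 it was between 2451 and 3378 normalized counts in fertile libraries and between 21.2 and 40.2 in infertile libraries. By in situ hybridization the study found tsk-1 in testes and tsk-2 also in oocytes, and tsk-6 was not among the genes it stained. The tsk-2 contig was at 0 in 13 of the 21 infertile libraries. Fertile library 3 at A2 had a testis sum of only 212, whereas the other fertile libraries of that stage had 3165 and 4546. It was also low in the summed level of the egg contigs ldlr and zp-1 (egg sum 50.8, against 382 and 705). Its vitellogenin was 78.5, against 4988 and 8366. The infertile library numbered 1 had a testis sum of 451 at B2, 1185 at C1 and 1828 at C2, and need not be the same sample at these stages. The other infertile libraries of those stages lay between 25.1 and 83.2. Fertile testis sums were 2646 to 7540 at B2, 704 to 2314 at C1 and 115 to 361 at C2. Infertile library 1 thus lay within the fertile range at C1 and above all fertile libraries at C2. The egg sum of infertile library 1 was 9.98 at B2, 14.8 at C1 and 19.0 at C2. Fertile libraries had egg sums of at least 1001, 176 and 617 at these stages. Vitellogenin in infertile library 1 was 68.2 at B2, 136 at C1 and 678 at C2, the last being the highest of the 21 infertile libraries (median 45.7). In fertile libraries it was at least 25146, 7281 and 22005 at these stages. The log2 differences of nanos, vasa and piwi-a at these 4 stages are therefore given with and without these libraries. Elongation factor 1-alpha (Bot_rep_c56578), the qPCR reference of the study, had a median of 2826 normalized counts in fertile libraries and 7168 in infertile libraries, and its part in the results below was not tested.

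The nanos contig was higher in fertile colonies at all 7 stages, and at every one of them the lowest fertile library lay above the highest infertile library. At A1, nanos had 322, 226 and 274 normalized counts in fertile libraries 1, 2 and 3, against 23.0, 16.4 and 45.2 in infertile libraries 1, 2 and 3. The lowest fertile library was 4.99-fold above the highest infertile one. The means were 274 ± 48.4 in fertile and 28.2 ± 15.1 in infertile colonies (SD, n = 3 each), a fold of 9.71. On the scale of log2(normalized count + 1), the difference was 3.34 ± 0.47 (SE) and passed a 10% false discovery rate (FDR) over all 38658 contigs tested at A1 (limma, Benjamini-Hochberg adjusted p = 0.0287). It was the 1 member of 4 to pass there, where 1.12% of all contigs passed as higher in fertile colonies. In bulk RNA of whole colonies, fewer germ cells and less nanos RNA per germ cell cannot be told apart.

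At B1, nanos had 283, 231 and 129 normalized counts in fertile libraries, against 18.5, 20.7 and 43.3 in infertile libraries. No infertile library came near a fertile one, and the fertile libraries spread 2.18-fold. The means of 214 ± 77.9 in fertile and 27.5 ± 13.7 in infertile colonies (SD, n = 3 each) gave a fold of 7.79 and a log2 difference of 2.95 ± 0.50, which passed the 10% FDR (limma adjusted p = 0.063). Of all contigs at B1, 1.14% passed as higher in fertile colonies. An exact test with a negative binomial model, run on read pairs, also called nanos at A1 (adjusted p = 0.00132) and at B1 (adjusted p = 0.00612), where that test called 1.54% and 1.68% of contigs as higher in fertile colonies. Both limma calls were sensitive to single libraries. The A1 call was lost without fertile library 1 (limma adjusted p = 0.226), fertile library 2 (0.159), fertile library 3 (0.157) or infertile library 1 (0.103). The B1 call was lost without fertile library 1 (limma adjusted p = 0.448), fertile library 2 (0.343), fertile library 3 (0.116), infertile library 1 (0.153) or infertile library 2 (0.232), and the direction held each time.

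At the other 5 stages nanos was also higher in fertile colonies in every library but did not pass the FDR. At D, the takeover stage, it had 120, 174 and 143 normalized counts in fertile libraries and 14.3, 65.7 and 27.5 in infertile libraries, a fold of 4.07 (limma adjusted p = 0.350) that was 6.98 without infertile library 2. The infertile libraries differed 4.60-fold among themselves there, more than the 1.83-fold gap between the groups. At A2 the fertile libraries had 187, 112 and 122 normalized counts and the infertile libraries 43.1, 15.2 and 22.4, a fold of 5.22 (limma adjusted p = 0.498). Fertile library 3, with its low testis and egg sums, had as much nanos as fertile library 2. Without fertile library 3 the log2 difference was 2.51, against 2.43 with all libraries. At B2 the groups came closest, with 202, 102 and 128 normalized counts in fertile libraries and 84.8, 79.4 and 44.0 in infertile libraries, a fold of 2.07 and a log2 difference of 1.04 ± 0.52 (limma adjusted p = 1.00).

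The lowest infertile nanos values were at C1 and C2. Their 95% Poisson intervals overlapped those of earlier libraries, such as infertile library 2 at A2 (15.2, interval 6.97 to 28.9). At C1 the fertile libraries had 126, 145 and 134 normalized counts and the infertile libraries 71.3, 9.75 and 6.46. The last of these was 3 read pairs, with a 95% Poisson interval of 1.33 to 18.9 normalized counts that covers counting error only. At C2 the fertile libraries had 233, 313 and 162 normalized counts and the infertile libraries 121, 29.6 and 8.38, the last again from 3 read pairs. The highest infertile value at both stages belonged to the library numbered 1, the one with testis markers at that stage. Without it the log2 difference was 3.92 instead of 2.92 at C1 (limma adjusted p = 0.139 instead of 0.916) and 3.76 instead of 2.81 at C2 (0.116 instead of 0.677), and at B2 it was 1.21 instead of 1.04 (1.00 in both cases). No stage was added to the 2 called when the 4 libraries with unusual testis sums were left out together, and the part of gonad tissue in these values was not tested.

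**Figure D1:**
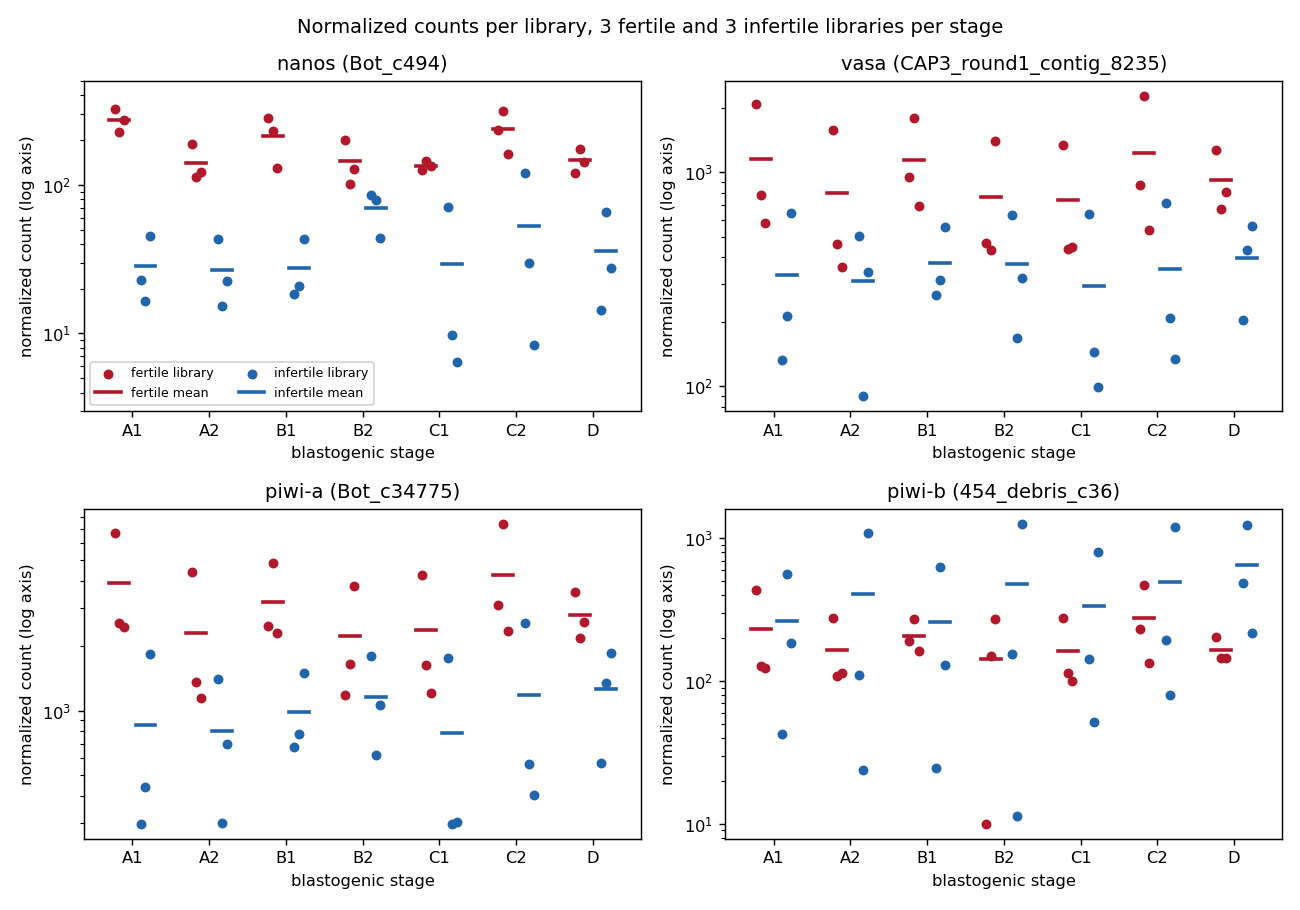
Normalized counts (log axis) of nanos, vasa, piwi-a and piwi-b at the 7 stages, with 1 point per library, fertile left of infertile, and bars at the group means. The nanos points of the 2 groups do not overlap at any stage, those of vasa and piwi-a overlap by 1 infertile library at most stages, and the highest piwi-b value of each stage is an infertile library.

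Vasa was between 2.05-fold (B2) and 3.48-fold (A1) higher in the mean of fertile colonies at the 7 stages and passed the 10% FDR at none of them (lowest limma adjusted p = 0.361, at D). Its unadjusted limma p was below 0.05 at 4 stages (A1, B1, C2 and D). Of all contigs tested, 2819 of 38658 had such a p at A1, 3193 of 39114 at B1, 2821 of 38595 at C2 and 4791 of 37885 at D. The negative binomial exact test also called vasa at no stage at the 10% FDR. Single libraries moved the folds of vasa, to 1.2 at B2 without fertile library 3, and at A1 to 2.07 without fertile library 1 and 6.63 without infertile library 3. At A1, vasa had 2082, 787 and 576 normalized counts in fertile libraries, against 133, 214 and 644 in infertile libraries. Infertile library 3 lay above the lowest fertile library, and fertile library 1 held more than the other fertile libraries together. The groups did not overlap at B1 and D. At B1 the fertile libraries had 951, 1793 and 696 normalized counts and the infertile libraries 265, 315 and 552, a log2 difference of 1.56 ± 0.47 (limma adjusted p = 0.415). At D the fertile libraries had 1272, 674 and 810 and the infertile libraries 204, 431 and 561, a log2 difference of 1.27 ± 0.44. The gap between the groups was at most 1.26-fold, smaller than the spread among libraries of either group, which was at least 1.89-fold in fertile and 2.08-fold in infertile colonies at every stage.

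At 5 stages exactly 1 infertile vasa value lay within the fertile range. At B2, C1 and C2 that library was the one numbered 1 at its stage, with testis markers, and had 634, 641 and 719 normalized counts. Without it, the log2 difference of vasa was 1.49 at B2, 2.41 at C1 and 2.60 at C2, against 1.01, 1.6 and 1.90 with all libraries, and still did not pass (limma adjusted p = 1.00, 0.482 and 0.262). Fertile library 3 at A2 was the one with low testis and egg sums. Without it the log2 difference of vasa was 1.77, against 1.36 with all libraries (limma adjusted p = 0.794 and 0.770). At A1 and A2 the overlapping library carried few testis reads: the testis sum of infertile library 3 at A1 was 28.8 normalized counts, and that of infertile library 1 at A2 was 23.2.

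Piwi-a, whose closest human homolog is Piwi-like protein 1, ran close to vasa. It was between 1.91-fold (B2) and 4.55-fold (A1) higher in fertile colonies and passed the FDR at no stage, with a lowest limma adjusted p of 0.287 at B1. Its unadjusted limma p was below 0.05 at 5 stages, the same as for vasa and C1, where 1591 of all 38280 contigs tested had such a p. The negative binomial exact test called piwi-a at no stage at the 10% FDR. The fold was 1.22 at B2 without fertile library 3, and at A1 it was 2.91 without fertile library 1 and 10.6 without infertile library 3. At A1, piwi-a had 6729, 2562 and 2448.5 normalized counts in fertile libraries, against 297, 442 and 1842 in infertile libraries. All fertile libraries were higher, and infertile library 3 was over 4-fold above the next infertile library. Without it the log2 difference was 3.26 and passed (limma adjusted p = 0.0757), against 2.48 ± 0.74 with all libraries (0.479). At B1 the fertile libraries had 2476, 4865 and 2295 normalized counts and the infertile libraries 674, 774 and 1493, a log2 difference of 1.72 ± 0.44. The groups did not overlap at A1, B1 and D.

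At the other 4 stages piwi-a overlapped by 1 infertile library, the one numbered 1 each time. Numbers follow the size factor within a stage, so it need not be the same sample. At A2 its testis sum was only 23.2. At C2 the fertile libraries had 3088, 7417 and 2358 normalized counts and the infertile libraries 2566, 561 and 405. Infertile library 1 thus lay inside the fertile range while the remaining infertile libraries were at least 4-fold lower than any fertile one. Without that library the log2 difference at C2 was 2.98 (limma adjusted p = 0.134), at C1 2.76 (0.374) and at B2 1.26 (1.00), against 2.18, 1.91 and 0.88 with all libraries. Without fertile library 3 at A2 it was 1.88, against 1.52 with all libraries (limma adjusted p = 0.794 and 0.765).

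Piwi-b gave a different picture from the other 3 contigs. Its mean was lower in fertile colonies at all 7 stages, between 0.254-fold (D) and 0.878-fold (A1). It did not pass at any stage in limma or in the negative binomial exact test. Its unadjusted limma p was below 0.05 only at D, where 4791 of all 37885 contigs tested had such a p. The lower fertile mean rested on 1 infertile library at each stage but D. At B2, piwi-b had 10.005, 149 and 271 normalized counts in fertile libraries, against 155, 11.3 and 1267 in infertile libraries. The highest and nearly the lowest value of the stage were thus both infertile, 112-fold apart. At C2 the fertile libraries had 233, 468 and 135 normalized counts and the infertile libraries 195, 79.6 and 1201, so that 1 infertile library stood above and 1 below all fertile libraries. Without the highest infertile library, the fertile mean was the higher one at 6 of the 7 stages, with a fold of 0.468 to 2.69.

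At D alone the piwi-b groups did not overlap, with 204, 146 and 145 normalized counts in fertile libraries and 488, 1241 and 218 in infertile libraries. The log2 difference was -1.64 ± 0.61 (limma adjusted p = 0.375). At that stage 10.8% of all contigs had fertile libraries that were all below the infertile ones. On the log2 scale the difference of piwi-b had a positive sign at A1, A2 and B1 (0.22 ± 0.97, 0.07 ± 1.28 and 0.67 ± 1.06), where the ratio of means was below 1, because a single high library weighs less on a log scale. No direction is therefore given for piwi-b at these stages, nor at B2, C1 and C2, where the sign changed when 1 library was left out.

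Over the 28 combinations of member and stage, the fertile libraries were all above the infertile ones in 12 and all below in 1. This was so, with fertile above, for 3 of 4 members at B1, where 8.04% of all contigs tested had such a gap, for 3 at D (10.9% of contigs) and for 2 at A1 (7.75%). Nanos was the 1 member with such a gap at A2, B2, C1 and C2, where the shares of contigs were 6.93%, 4.91%, 4.39% and 7.21%. With 3 libraries against 3, the smallest 2-sided p of an exact permutation test is 0.1, and no such test was run. No member passed the FDR at A2, B2, C1, C2 or D, where limma called 0%, 0.0212%, 0%, 0.00259% and 0.0396% of contigs as higher in fertile colonies, nor was any called there by the negative binomial exact test, which called 0.358%, 0.365%, 0.034%, 0.122% and 0.478%.

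**Figure D2:**
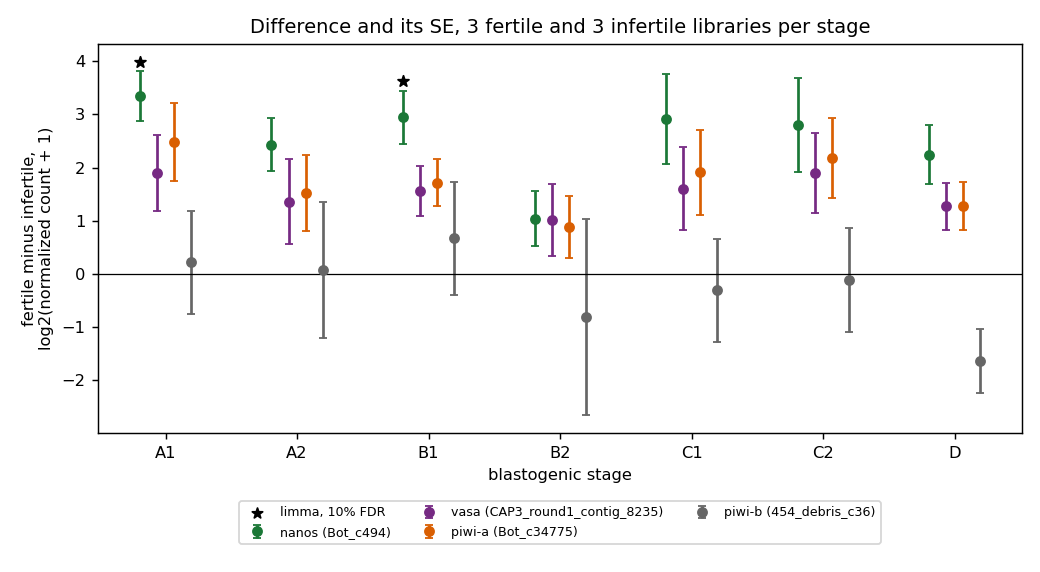
Difference between fertile and infertile colonies on the scale of log2(normalized count + 1), with its SE, for the 4 contigs at each stage, and stars at values past a 10% FDR in limma. Nanos reached 3.34 at A1 and 2.95 at B1, the only starred values, while piwi-b had error bars across 0 at every stage but D.

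Infertile colonies kept a part of each mRNA. For nanos, the infertile mean was 10.3% of the fertile mean at A1, 12.8% at B1 and 19.1% at A2. It was 48.2% at B2 and 21.6% to 24.6% at C1, C2 and D. Without infertile library 1 of the stage, the one with testis markers there, it was 42.8% at B2, 6.003% at C1 and 8.04% at C2. Without infertile library 2 it was 14.3% at D. The infertile mean of vasa was between 28.7% (A1) and 48.8% (B2) of the fertile mean. Without infertile library 1 the vasa value was 31.9% at B2, below that of nanos, 16.4% at C1 and 13.98% at C2, and without fertile library 3 it was 83.3% at B2. At A1 it was 15.1% without infertile library 3 and 48.4% without fertile library 1. The piwi-a value was between 22.0% (A1) and 52.3% (B2). Without infertile library 1 it was 38.0% at B2, 12.7% at C1 and 11.3% at C2, without fertile library 3 it was 82.0% at B2, and at A1 it was 9.44% without infertile library 3 and 34.3% without fertile library 1. The difference between members was not tested. Nanos was read in all 21 infertile libraries, although 2 of them held only 3 read pairs. The lowest infertile library of vasa still held 89.7 normalized counts from 46 read pairs and that of piwi-a 297 from 141, so detection of these mRNAs in infertile colonies did not rest on a few reads. For piwi-b the infertile mean was between 114% and 393% of the fertile mean, and leaving out 1 library moved it to either side of 100% at every stage except D.

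**Figure D3:**
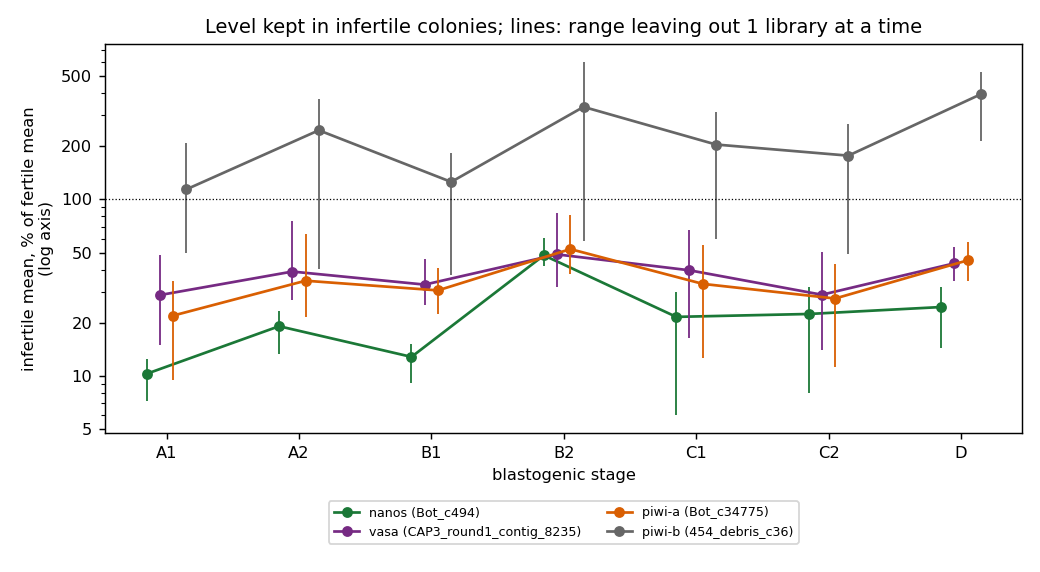
Infertile mean as a percentage of the fertile mean (log axis) at each stage, with vertical lines from the lowest to the highest value when 1 library at a time is left out. Nanos, vasa and piwi-a lie below the dotted line at 100% and nearest to it at B2 (48.2%, 48.8% and 52.3%), and piwi-b lies above it with lines that cross it at all stages but D.

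Levels across stages were set side by side after scaling the 42 libraries together, as a description with no test. In fertile colonies the nanos mean was highest at A1 (271 normalized counts) and lowest at C1 (139), a range of 1.95-fold. With scaling by total read pairs it was lowest at B2 instead, and the range was 2.49-fold. In infertile colonies it was highest at B2 (71.4 ± 22.8) and lowest at B1 (23.8 ± 12.2; SD, n = 3), a range of 3.0-fold. Ordered by mean, each stage overlapped its neighbour in the order, for each of the 4 contigs in both groups. Fertile means spanned 1.5-fold for vasa, 1.68-fold for piwi-a and 1.68-fold for piwi-b (1.85-fold, 2.17-fold and 1.92-fold with scaling by total read pairs), and infertile means 1.35-fold, 1.59-fold and 2.94-fold. None of the 28 differences of a member at 1 stage from that at the other 6 stages passed a 10% FDR in a limma interaction over the 42 libraries (lowest adjusted p = 1.00). The same test called 0.0466% of all contigs at C2 and none at another stage. One had an unadjusted p below 0.05, nanos at B2, where the log2 difference was 1.75 smaller than at the other stages (-1.75 ± 0.75, SE). That fit treats repeated sampling of a genotype over the cycle as independent.

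The same libraries were high in vasa and in piwi-a. Within fertile colonies the library with most vasa also had most piwi-a at 7 of 7 stages and most piwi-b at 7 of 7, and within infertile colonies it had most piwi-a at 7 of 7 and most piwi-b at 0 of 7. For nanos it was the same library at 3 of 7 stages in fertile and 6 of 7 in infertile colonies. The fertile library highest in vasa was also the one lowest in elongation factor 1-alpha at 7 of 7 stages, against 3 of 7 in infertile colonies. Piwi-a had between 2.54 and 4.39 read pairs per vasa read pair in fertile libraries and between 2.05 and 3.71 in infertile libraries, a 2.15-fold range over 42 libraries in which vasa itself ranged from 89.7 to 2275 normalized counts. This ratio does not depend on the size factors, and with unknown contig lengths it says nothing of which mRNA is more abundant.

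Over the 42 libraries scaled together, Pearson's r of log2(normalized count + 1) was 0.980 for vasa and piwi-a, and within groups it was 0.961 over the 21 fertile and 0.970 over the 21 infertile libraries. The corresponding values for nanos and vasa were 0.821, 0.419 and 0.757. For vasa and piwi-b they were 0.187, 0.705 and 0.168, so that piwi-b went with vasa in fertile but hardly in infertile libraries. Points share stage and genotype, so the libraries are not independent. Nanos per vasa read pair had a median of 0.242 in fertile and 0.0784 in infertile libraries, with no overlap of the groups at B1 alone.

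**Figure D4:**
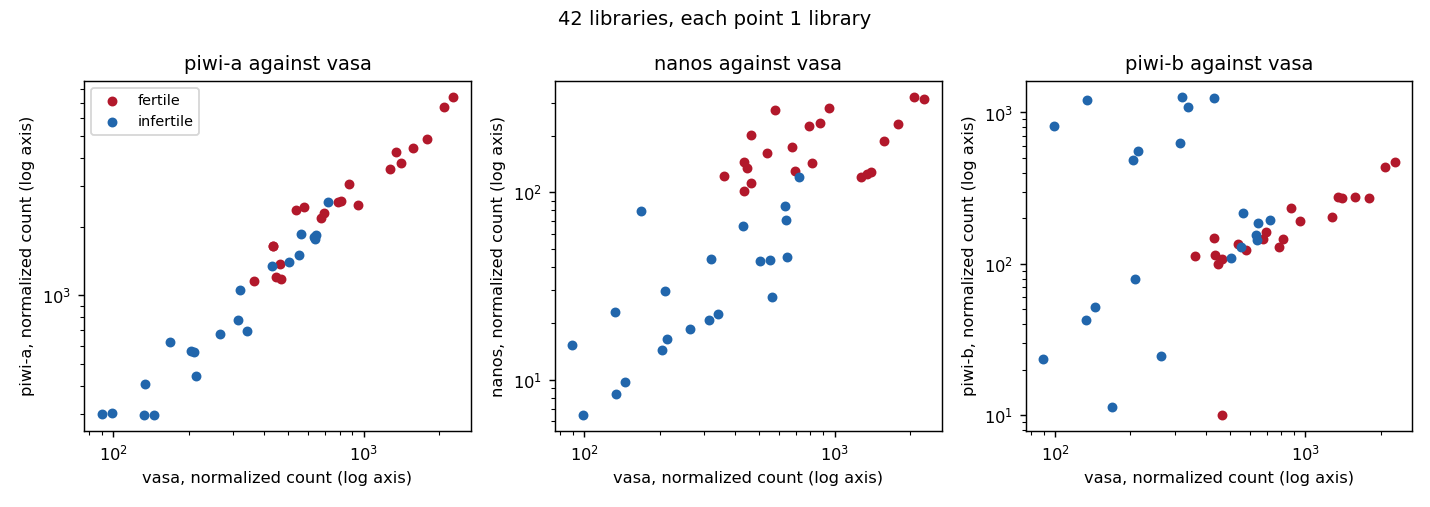
Normalized counts (log axes) of piwi-a, nanos and piwi-b against vasa, with 1 point per library, for 21 fertile and 21 infertile libraries. Piwi-a follows vasa in a narrow band (r = 0.980), and nanos per vasa read pair is higher in fertile libraries (median 0.242, against 0.0784 in infertile libraries). Most piwi-b values follow vasa, with some infertile libraries far above them and a few libraries of both groups below. The lowest is fertile library 1 at B2, with 0.0215 piwi-b per vasa read pair against a fertile median of 0.210.

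The contigs most like each member were sought by r over the 42 libraries among 38607 contigs that averaged 10 normalized counts or more. The closest to vasa was piwi-a and the closest to piwi-a was vasa. Next to vasa came a homolog of gametocyte-specific factor 1 (GTSF1, Bot_c22097, r = 0.937), a zinc-finger partner of Piwi proteins in mice and flies, and a homolog of hematopoietic prostaglandin D synthase (Bot_rep_c50391, r = 0.935), which was also second for piwi-a (r = 0.954). Closest to nanos were homologs of fukutin (Bot_rep_c50436, r = 0.943), a glycosylation enzyme, of boule (CAP3_round1_contig_4110, r = 0.942), an RNA-binding protein of the DAZ family needed for sperm formation in flies and mice, and of SOX-30 (Bot_rep_c35461, r = 0.935), a transcription factor needed for sperm formation in mice. The contigs closest to piwi-b had r of 0.868, 0.863 and 0.855 and no homolog name in the sheets used here. A contig that differs between the groups will correlate with nanos for that reason alone, and within groups the r of these 3 contigs with nanos was between 0.787 and 0.838 in fertile and between 0.804 and 0.848 in infertile libraries.

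Other germline homologs had the same sign of log2 difference as nanos, vasa and piwi-a, positive in 181 of 182 combinations of contig and stage. Of all contigs tested, 49.2% (B2) to 50.9% (D) had a positive log2 difference. The ratio of means could go the other way. At A2 a GTSF1 contig (Bot_rep_c50536) had a log2 difference of 1.09, but means of 882 normalized counts in fertile and 1012 in infertile colonies. Of the 182 combinations, 15 passed the 10% FDR in limma, 7 at A1 and 8 at B1, where 1.12% and 1.14% of all contigs passed as higher. The negative binomial exact test called 37, with 11 at A1, 6 at A2, 10 at B1, 3 at C2 and 7 at D. At these stages it called 1.54%, 0.358%, 1.68%, 0.122% and 0.478% of all contigs as higher in fertile colonies. The homologs were 14 contigs of the piRNA pathway and germ granules, 4 of germ cell RNA-binding proteins and 9 of meiosis. Of these 27, 25 had been named from sheet rows ranked by the p-values of these samples, so the lists are not independent evidence of a direction or of its size. In the piRNA list, 13 contigs could be tested, and all had a positive log2 difference at all 7 stages. In limma 1 passed the 10% FDR, the Tudor-domain homolog TDRD7 (Bot_rep_c49013) at B1, with 271 ± 127 normalized counts in fertile and 44.1 ± 11.4 in infertile colonies (SD, n = 3 each; limma adjusted p = 0.0737). The negative binomial exact test called this contig at A1, B1 and D (adjusted p = 0.00707, 0.0294 and 0.0908). It also called a further TDRD7 contig (CAP3_round1_contig_6644) at A1 and B1 (0.0149 and 0.0168) and the GTSF1 contig Bot_c22097 at B1 (0.0868). The list's median log2 difference was between 1.26 (B2) and 1.99 (A1), against a median of all contigs between -0.01 and 0.01. The other members of this list include TDRD1, TDRD6 and TDRD9, Tudor-domain proteins of germ granules, maelstrom, a protein of piRNA silencing, MOV10L1, a helicase of piRNA processing, and PLD6 (zucchini), the nuclease that cuts piRNA precursors in flies and mice. The third TDRD1 contig (Bot_c5438) stayed below 10 normalized counts in the mean over both groups at every stage and was not tested.

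Of the germ cell RNA-binding proteins, boule passed at A1 (794 ± 328 normalized counts in fertile and 33.1 ± 23.7 in infertile colonies, limma adjusted p = 0.0178) and at B1 (662 ± 375 and 54.1 ± 10.9, limma adjusted p = 0.067; SD, n = 3 each). A homolog of YTHDC2 (CAP3_round1_contig_897), a helicase needed for entry into meiosis in mice, passed at A1 with a fold of 4.85 (limma adjusted p = 0.0817). CPEB1, which controls poly(A) tails of maternal mRNAs, did not pass at any stage and had log2 differences of 1.24 to 3.27.

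In the meiosis list, limma called 5 of 9 contigs at A1 and 6 of 9 at B1, all higher in fertile colonies, where it called 1.12% and 1.14% of all contigs. Limma called none at the other stages, where the negative binomial exact test called 5 at A2, 3 at C2, 5 at D (0.358%, 0.122% and 0.478% of all contigs) and none at B2 and C1. At A1 the 3 SYCP3 contigs, of the synaptonemal complex that joins paired chromosomes, were 24.9-fold to 52.9-fold higher, REC8, the cohesin subunit of meiosis, 37.4-fold and HORMAD2, a protein of chromosome axes, 20.8-fold. SPO11, which makes the double-strand breaks that start recombination, passed at B1 with a fold of 24.8. DMC1, REC114 and SPATA22, also recombination proteins, did not pass at any stage in limma, whereas the negative binomial exact test called SPATA22 at A1 and D (adjusted p = 0.0590 and 0.0720). REC114 had a log2 difference of -0.41 at D, the 1 negative value among 182 combinations of contig and stage in the 3 lists.

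**Figure D5:**
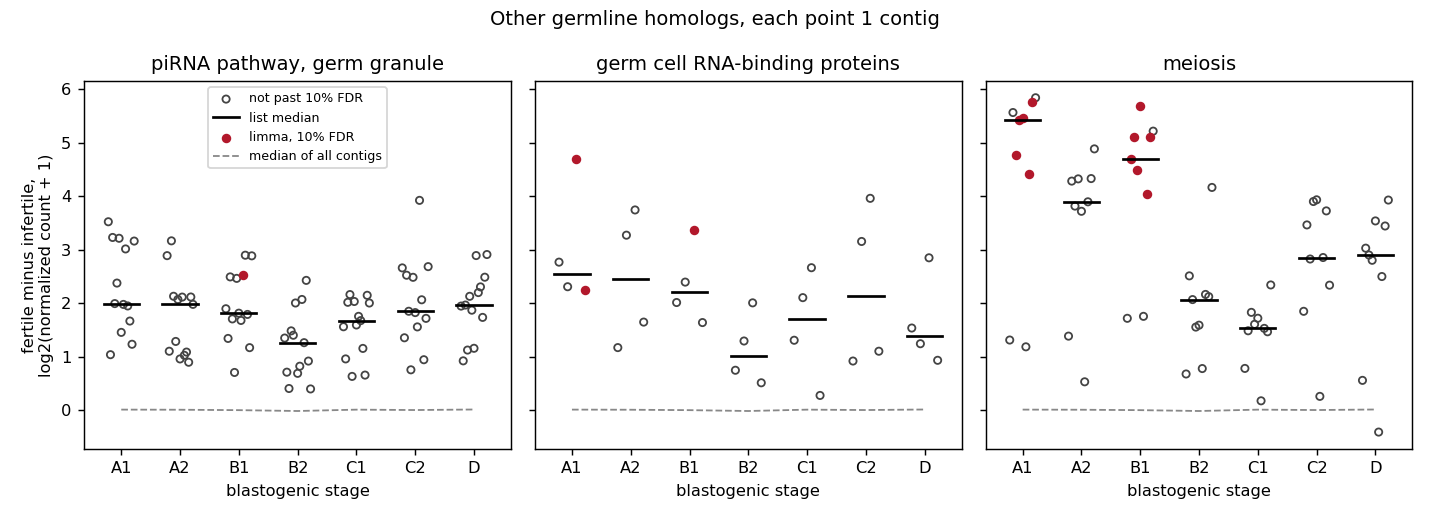
Log2 difference between fertile and infertile colonies of each contig in the 3 germline lists at the 7 stages, with filled points past a 10% FDR in limma, bars at the list medians and a dashed line at the median of all contigs. Filled points lie at A1 and B1 only, and the meiosis list stands highest at these stages with medians of 5.42 and 4.70.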

How the data were processed

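Paired-end poly(A) libraries were trimmed by the authors, aligned with Bowtie 0.12.7 to an assembly of expressed sequence tags and counted per contig with Sam2Counts (SAMtools 0.1.18). The deposited signal is the authors' mean over 3 libraries of counts divided by size factors, which the authors computed with DESeq 1.10.1 separately at each stage. The deposited fold changes and p-values are the authors' own comparison and were not used. Reads per library were recovered from the 15-digit means as whole read pairs (2 reads each): at least 99.7% of contigs per group column had a single solution, and none of 42000 decoy values was solved. Contigs without one had means of 10908.5 or more. Size factors recomputed from the recovered reads were 0.998 to 1.00 times those recovered.

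Fertile and infertile libraries were compared at each stage with limma 3.58.1 (R 4.3.3) on the log2 of normalized counts with a pseudocount of 1, where a contig averaged 10 or more, at a 10% FDR over all contigs. Data for 37943 contigs were simulated with the means and size factors of A1 and the same added spread for every contig, not the spread measured. On these it called 68 of 100 with an 8-fold change, 98 of 100 with a 30-fold change and 11 with none. Smaller changes, such as those of vasa and piwi-a, were not simulated. A negative binomial exact test on read pairs, other pseudocounts, no filter, scaling by total read pairs, voom, no trend, a 5% FDR and leaving out each library were alternatives. Named contigs are the 4 members, the 3 lists and the 3 contigs most correlated with each member. The members and lists were chosen with earlier results of these data known. Homolog names came from 5 of the paper's sheets of stage comparisons, so a list may have been named from a stage at which it was tested. Labels name separate samples. Recovered libraries were not matched to these names, which would read a label from values, so p-values measure only the spread between libraries. Intervals cover counting error only. Other steps ran in Python 3.11.15 with numpy 2.4.6 and scipy 1.17.1. No contig sequence or length was used here.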

Additional observations from a re-analysis of the deposited data

How the results depend on the processing

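Nanos, vasa and piwi-a kept a positive difference at every stage in all alternatives tried. Of 224 values under other settings 217 kept their direction and side of the threshold, and of 168 with 1 library left out 147 did. The number of stages at which nanos passed was 2. It was 1 with voom and 1 at a 5% FDR, between 1 and 2 with 1 library left out, and 2 with the 4 libraries of unusual testis sums left out together, an alternative chosen after seeing the data. Piwi-a passed at 0 to 1 stages with 1 library left out, the 1 being A1 without infertile library 3. Piwi-b changed sign without passing: to -0.19 at A1, -1.29 at A2 and -0.33 at B1 as the log2 ratio of means in the negative binomial test, to -0.011 at A2 with a pseudocount of 8, and to 0.060 at C2 with scaling by total read pairs. With 1 library left out its log2 difference lay between -0.75 and 1.097 at A1, -1.20 and 1.53 at A2, -0.49 and 1.81 at B1, -2.54 and 0.80 at B2, -1.21 and 0.76 at C1 and -0.98 and 0.97 at C2. The cause was not tested. Counts of contigs called over the whole table moved more: 438 at A1 became 192 with voom and 599 with the negative binomial test, and 451 at B1 became 100 and 672. No paired analysis was possible because the labels give the groups no shared replicate number and the recovered libraries carry no sample name. Counts as low as 3 read pairs for nanos (C1, C2) and 6 for piwi-b (B2) limit those values.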
